A study of Mus musculus with 6 samples.

Results

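The 39 Hox genes of the mouse were compared between 2 tumor cell populations grown from a single primary tumor. They were taken as the entries of the deposited table whose symbol is Hoxa, Hoxb, Hoxc or Hoxd followed by a number, 39 of 24129 gene entries, and no expression value was used to choose them. Hox genes encode homeodomain transcription factors that give cells their position along the body axis. They lie in 4 clusters, and the order of the genes along a cluster follows the order in which they are used from head to tail in the embryo. Many adult cells keep a Hox pattern that reflects where in the body they came from, and in the mammary gland several Hox genes take part in ductal and alveolar growth. Hox proteins bind DNA together with cofactors of the Pbx and Meis families, while Polycomb complexes keep unused Hox genes silent and Trithorax proteins keep used ones active.

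Both populations derive from 4T1GFP, a GFP-tagged line of the 4T1 mammary carcinoma that arose in the BALB/c strain. A tumor grown from these cells was resected and dissociated, and its GFP-negative, CD140a-positive fraction was cultured as fibroblasts. Tumor cells outgrew that culture and were sorted again by GFP into T1 cells (labelled 4T1A) and T2 cells (labelled 4T1NA). T1 cells had low GFP, grew attached with an epithelial shape, divided fast and were aggressive in mice, whereas T2 cells were the brighter fraction, grew round and loosely attached, divided slowly and were less aggressive. Both were grown in DMEM/F-12 with 10% FBS, and T2 cells were passaged without trypsin. Each population is a single sorted derivative of a tumor of 1 line, so the replicates do not sample other tumors, and the parental cells were not analysed here. The design calls the 3 replicates of each population independent without naming separate cultures, so p-values measure the spread between these libraries. The 6 libraries held between 18133227 and 20839686 reads on genes, and 1 read was worth between 0.928 and 1.06 normalized counts, the deposited unit, which is a read count divided by 1 size factor per library.

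Markers of other cell types were read first, because Hox patterns differ between cell types. Keratin genes of simple epithelia, Krt8 and Krt18, were abundant in both populations, at 22067 ± 1097 and 23275 ± 2627 normalized counts in T1 cells and 19195 ± 1606 and 21658 ± 1762 in T2 cells (SD, 3 libraries each). Of 10 epithelial markers 8 were compared, and 6 of them were higher in T1 cells past both filters of the comparison (an adjusted p below 0.01 and an absolute log2 fold change over 2), which 4.17% of all genes compared passed in that direction. These were Cdh1, at 14748 ± 908 normalized counts in T1 and 465 ± 16.2 in T2 cells, Epcam (3141 ± 314 and 34.7 ± 3.49), Cldn4 (5530 ± 1370 and 5.29 ± 2.73), Krt14 (3795 ± 77.0 and 3.04 ± 3.70), Krt19 (3177 ± 540 and 2.91 ± 2.54) and Esrp1 (686 ± 11.3 and 0.309 ± 0.536, SD, 3 libraries each). The last 4 had enough reads to be compared in T1 cells alone. The summed level of the list ran from 73099 to 81423 normalized counts in T1 cells and from 37495 to 43418 in T2 cells, where Krt8 and Krt18 made up almost all of it. Of 10 fibroblast markers, Pdgfra, the gene of CD140a, was lower in T1 cells (199 ± 7.98 against 1099 ± 171, SD, 3 libraries each) and Col1a1 higher, while Col3a1, Lum and Thy1 had no read in any library. The fibroblast list summed to 233 to 247 normalized counts in T1 cells and 998 to 1298 in T2 cells, and Pdgfra made up most of it. Leukocyte markers summed to 59.3 to 87.8 and 92.8 to 126 normalized counts, most of them from Cd68, and Ptprc, the pan-leukocyte gene, had no read in T1 and 5, 6 and 3 reads in T2 replicates 1, 2 and 3. Endothelial markers summed to 1383 to 1567 and 1138 to 1220, nearly all of them Eng. The part of these cell type differences in the Hox levels was not tested, and in bulk RNA fewer cells using a gene and less RNA per cell cannot be told apart.

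Transcription from the Hox clusters came almost entirely from Hoxa in both populations. Hoxa took 98.95%, 98.5% and 98.8% of the Hox reads of T1 replicates 1, 2 and 3, and 99.8%, 99.6% and 99.7% of those of T2 replicates 1, 2 and 3. The other 3 clusters together therefore held under 2% of Hox reads in each library. Of the 39 genes, 20 had at least 1 read in some library and 19 had none. A gene without a read could still be present at up to 3 reads in a library, which is 2.78 to 3.17 normalized counts, and this limit covers counting error only.

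**Figure D1:**
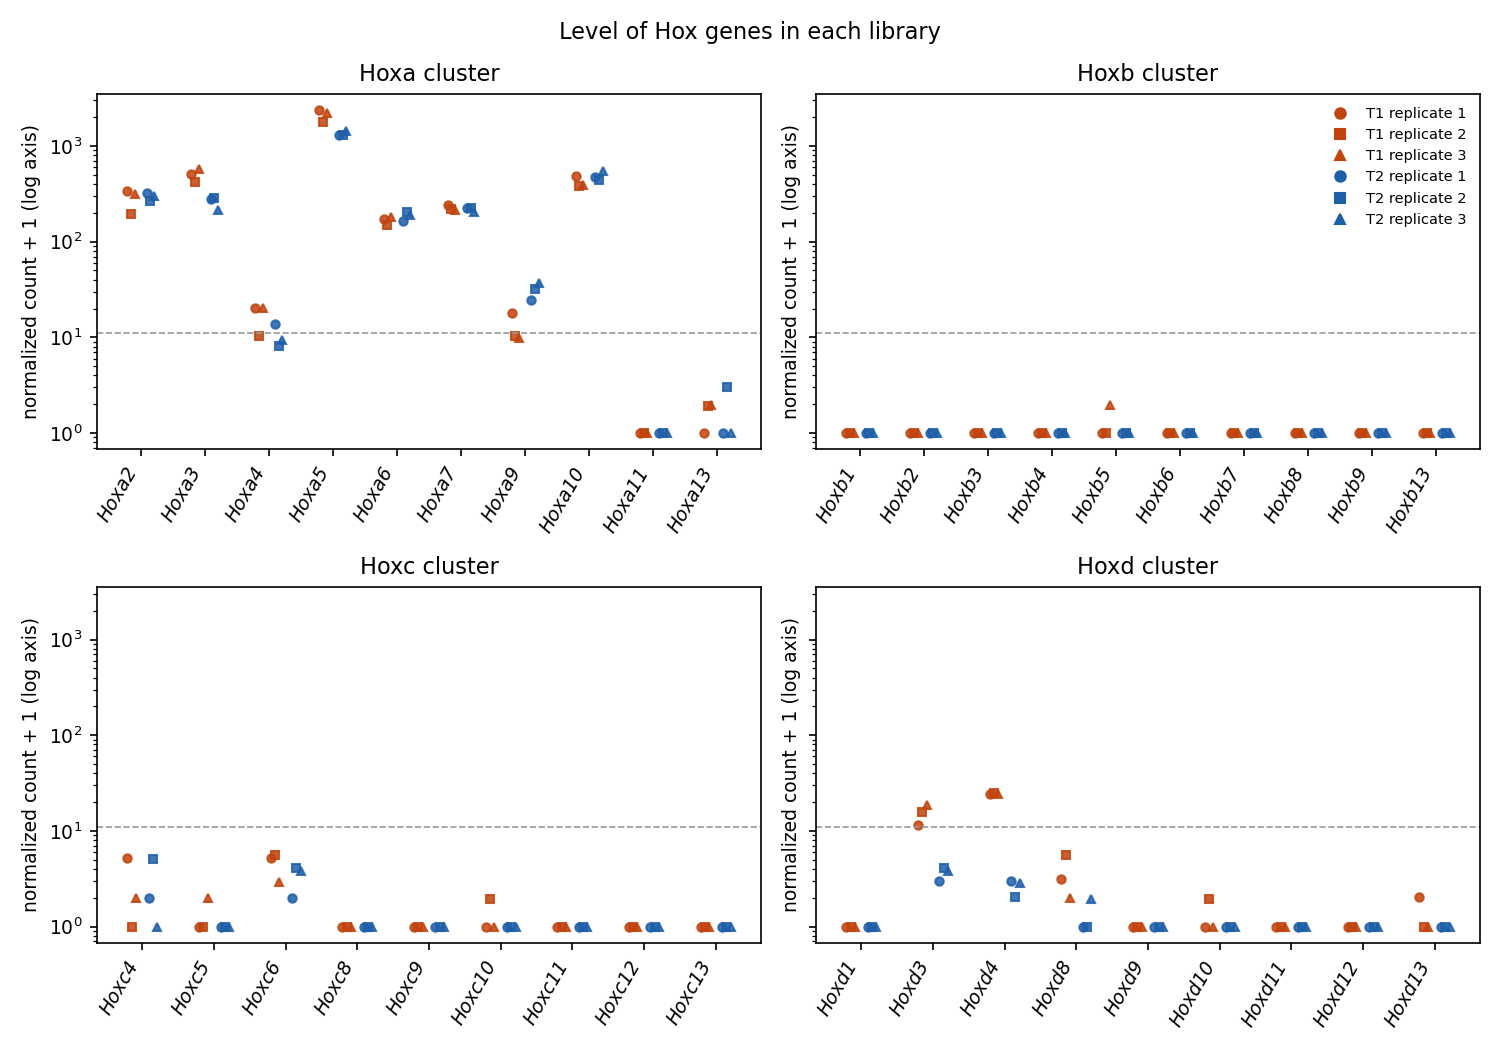
Normalized count + 1 of each Hox gene described here (log axis) in each library, 1 panel per cluster, with T1 cells in orange and T2 cells in blue and 1 symbol per replicate. The dashed line marks the mean of 10 normalized counts that a gene needed to be compared. Hoxa genes reach 2397 normalized counts, no Hoxb or Hoxc gene exceeds 5 reads, and Hoxd3 and Hoxd4 lie higher in all T1 libraries than in any T2 library.

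The Hoxa cluster spans 105.3 kb of chromosome 6 (mm10, 52155590 to 52260880, minus strand) and holds 11 genes. Hoxa2, Hoxa3, Hoxa4, Hoxa5, Hoxa6, Hoxa7, Hoxa9 and Hoxa10 were read in every library, Hoxa13 at its far end had 2 reads over the T1 libraries and 2 over the T2 libraries, and Hoxa11 had none. The Hoxb cluster (chromosome 11, 96194316 to 96368256) gave 1 read of Hoxb5 in all 6 libraries together, and Hoxb1, Hoxb2, Hoxb3, Hoxb4, Hoxb6, Hoxb7, Hoxb8, Hoxb9 and Hoxb13 had none. In the Hoxc cluster (chromosome 15, 102921103 to 103036852) Hoxc6 had 11 reads in T1 and 7 in T2 cells, Hoxc4 had 5 and 5, and Hoxc5 and Hoxc10 had 1 and 0. Hoxc8, Hoxc9, Hoxc11, Hoxc12 and Hoxc13 had no read. In the Hoxd cluster (chromosome 2, 74668310 to 74765142) reads fell on Hoxd3, Hoxd4 and Hoxd8, with 1 read each of Hoxd10 and Hoxd13 in T1 cells, and Hoxd1, Hoxd9, Hoxd11 and Hoxd12 had none. The posterior genes, those numbered 9 to 13, had at most 2 reads in any library of either population, apart from Hoxa9 and Hoxa10.

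Levels of different genes were compared per kilobase of annotated exon. Hoxa5, which in mice is needed for lung and skeletal patterning and is expressed in mammary epithelium, stood highest in both populations on this scale, at 1132 ± 169 normalized counts per kb in T1 and 716 ± 34.3 in T2 cells (SD, 3 libraries each). In T1 cells it was followed, per kb, by Hoxa6 (191), Hoxa2 (159), Hoxa10 (128), Hoxa3 (83.7), Hoxa7 (77.6), Hoxa4 (10.0), Hoxd4 (8.01) and Hoxa9 (2.09). In T2 cells the order per kb was Hoxa6 (214), Hoxa2 (167), Hoxa10 (149), Hoxa7 (75.5), Hoxa3 (43.4), Hoxa4 (5.91), Hoxa9 (5.40) and Hoxd4 (0.547). The replicates of neighbours overlapped for Hoxa6 with Hoxa2, Hoxa2 with Hoxa10, Hoxa3 with Hoxa7 and Hoxa4 with Hoxd4 in T1 cells. In T2 cells they overlapped for Hoxa2 with Hoxa10 and Hoxa4 with Hoxa9. The order rests on which exons are counted as length. Per kilobase of coding sequence Hoxa3, whose annotated exons are the longest, ranked 2 in T1 and 6 in T2 cells. Between the populations, Hoxa3 and Hoxa7 exchanged places, as did Hoxd4 and Hoxa9.

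For the comparison of T1 with T2 cells, 10 of the 39 Hox genes reached a mean of 10 normalized counts over the 6 libraries, 9 in Hoxa and 1 in Hoxd. Hoxd4 reached it through T1 cells alone, with 23.6 normalized counts there and 1.61 in T2 cells. Hoxa3, Hoxa5 and Hoxd4 were higher and Hoxa9 was lower in T1 cells with an adjusted p below 0.01 in limma, where the Benjamini-Hochberg adjustment ran over all 11514 genes compared. These are 4 of 10, against 49.5% of all genes compared. In the direction higher in T1 cells they are 3 of 10, against 25.1%, and in the direction lower in T1 cells 1 of 10, against 24.4%. With an absolute log2 fold change over 2 as the second filter, Hoxd4 alone remained of the 10. Both filters were passed by 8.37% of all genes compared, 4.17% as higher and 4.2% as lower in T1 cells. The same 4 genes were those whose 3 T1 values did not overlap the 3 T2 values, which held for 68.1% of all genes compared, 34.2% with T1 above and 33.9% with T1 below. These shares are therefore not a result about Hox genes as a group. Their median log2 fold change was 0.34 and that of all genes compared -0.0055, and the median size of the change was 0.66 and 0.45. Fold changes are given as log2 of T1 over T2 on normalized count + 1, a scale that shrinks the folds of scarcely read genes.

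**Figure D2:**
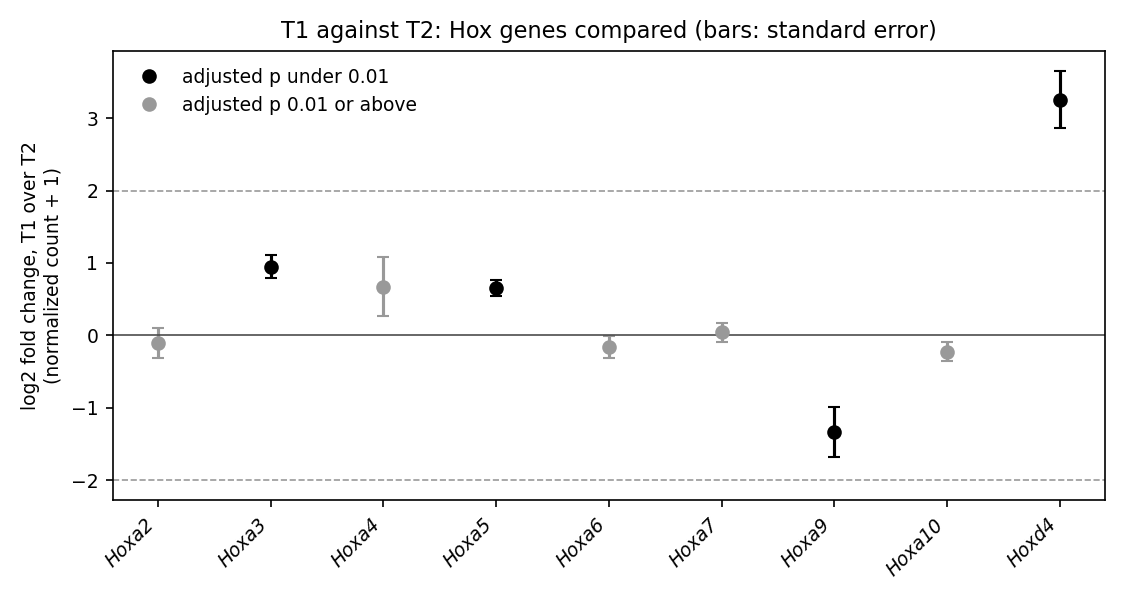
Log2 fold change of T1 over T2 cells (normalized count + 1) for the Hox genes compared and described here, in cluster order, with bars of 1 standard error and black points for an adjusted p below 0.01 in limma. The dashed lines mark a log2 fold change of 2 in each direction. Hoxd4 lies at 3.26, Hoxa3 and Hoxa5 lie at 0.95 and 0.65, Hoxa9 lies at -1.33, and the bars of Hoxa2 and Hoxa7 cross 0.

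Hoxd4 showed the largest change of the Hox genes compared. It lies on chromosome 2 (74711929 to 74729160, plus strand) and acts in the embryo in the hindbrain and the neck vertebrae. Its normalized count was 23.3, 24.2 and 23.4 in T1 replicates 1, 2 and 3 and 1.96, 1.02 and 1.86 in T2 replicates 1, 2 and 3. All T1 libraries lay close together and far above the T2 libraries, which held 2, 1 and 2 reads. The log2 fold change was 3.26 (standard error, SE, 0.39, Benjamini-Hochberg adjusted p = 4.66e-05 in limma). From the summed reads, 72 in T1 and 5 in T2 cells, the ratio was 14.5, with a 95% interval of 5.95 to 46.1 that covers counting error only. The fold change depends on the pseudocount, since a pseudocount of 5 gave 2.12 and DESeq2 on the recovered reads 3.87.

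Hoxd3, the neighbour of Hoxd4 and a member of the group 3 genes that pattern the neck, fell below the level needed for the comparison. Its normalized count was 10.6, 14.9 and 17.6 in T1 replicates 1, 2 and 3 and 1.96, 3.07 and 2.78 in T2 replicates 1, 2 and 3. The T1 libraries all lay above those of T2. Its reads summed to 44 and 8, a ratio of 5.56 with a 95% counting interval of 2.59 to 13.7. With all 15710 genes that had a read in the fit, its log2 fold change was 2.08 (SE 0.38, Benjamini-Hochberg adjusted p = 0.000981 in limma), past both filters, as were 8.1% of those genes, while 37.5% had an adjusted p below 0.01. It also passed both in edgeR on the recovered reads without the filter, a fit chosen after seeing the data (log2 fold change 2.43, adjusted p = 0.00254 in edgeR), as did 7.77% of genes. Hoxd8 had 8 reads in T1 and 1 in T2 cells, a ratio of 8.08 with a 95% counting interval of 1.08 to 359, and its adjusted p-value without the filter was 0.0411 in limma and 0.121 in edgeR. The antisense transcript Hoxd3os1, whose span on the other strand holds the GENCODE starts of Hoxd3 and Hoxd4, had 4, 8 and 6 reads in T1 replicates 1, 2 and 3 and none in any T2 library. With 3 reads per library as the T2 level, it was at least 1.99-fold higher in T1 than in T2 cells. Over the 9 genes of the cluster, Hoxd reads were 35, 48 and 43 in T1 replicates 1, 2 and 3 and 4, 4 and 6 in T2 replicates 1, 2 and 3. The summed Hoxd level was 41.2 ± 3.86 normalized counts in T1 and 4.53 ± 0.906 in T2 cells (SD, 3 libraries each), a ratio of 9.10.

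**Figure D3:**
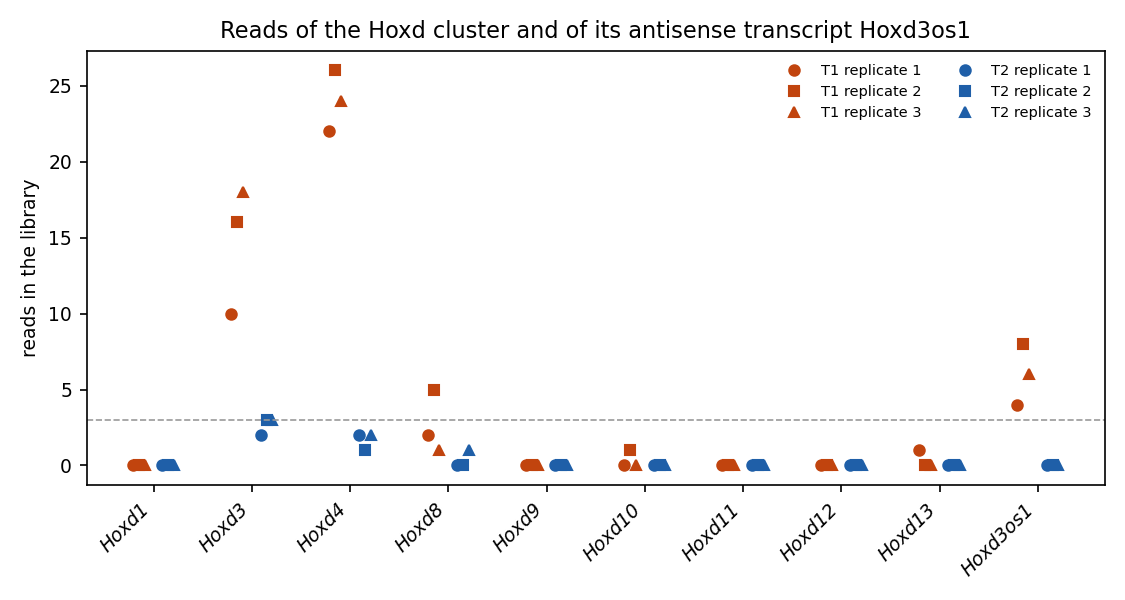
Reads of the 9 Hoxd genes and of the antisense transcript Hoxd3os1 in each library, with T1 cells in orange, T2 cells in blue, 1 symbol per replicate and a dashed line at 3 reads. Hoxd3 and Hoxd4 hold 10 to 26 reads in T1 libraries and at most 3 in T2 libraries, and Hoxd1, Hoxd9, Hoxd11 and Hoxd12 are at 0 in all.

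The gene models of Hoxd3, Hoxd4 and Hoxd3os1 overlap, so their counts may share reads. In the GENCODE annotation of the same build, Hoxd3 (chromosome 2, 74711927 to 74748442) and Hoxd4 share 388 exonic bases, 9.26% of Hoxd3 and 13.2% of Hoxd4. Hoxd3os1 lies on the other strand and covers 347 of the exonic bases of each. The readthrough model Gm28230, which was not an entry of the table, holds 53.1% of the exonic bases of Hoxd3 and 39.1% of those of Hoxd4. The library kit does not mark strand, so reads of Hoxd3os1 over these bases cannot be told from reads of Hoxd3 and Hoxd4. How the counting treated shared bases is not given in the sources used here.

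The promoters of these 2 neighbours are shown because both genes were read more in T1 cells. They run from 250 bases before to 50 bases after the start given by RefSeq on GRCm38.p6, the assembly of mm10. The Hoxd3 window is chr2:74711743-74712042 and the Hoxd4 window chr2:74721728-74722027, both on the plus strand. RefSeq starts Hoxd4 at 74721978, inside the gene span that GENCODE starts at 74711929, so the Hoxd4 window lies outside the span of Hoxd3os1 (74703248 to 74716130). Capitals mark matches on either strand to the motifs searched, which were TATAAA (the TATA box), CCAAT (bound by NF-Y), TGATNNAT (a joint Pbx and Hox site), CACCTG (an E-box) and AGGTCA (a nuclear receptor site, of the kind retinoic acid receptors bind in pairs).
Hoxd3: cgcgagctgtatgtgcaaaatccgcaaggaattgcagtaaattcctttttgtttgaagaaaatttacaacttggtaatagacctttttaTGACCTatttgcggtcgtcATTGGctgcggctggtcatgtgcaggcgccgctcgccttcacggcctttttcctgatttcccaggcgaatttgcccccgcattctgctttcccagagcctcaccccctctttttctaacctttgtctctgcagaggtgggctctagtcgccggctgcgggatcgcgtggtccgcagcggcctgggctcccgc
Hoxd4: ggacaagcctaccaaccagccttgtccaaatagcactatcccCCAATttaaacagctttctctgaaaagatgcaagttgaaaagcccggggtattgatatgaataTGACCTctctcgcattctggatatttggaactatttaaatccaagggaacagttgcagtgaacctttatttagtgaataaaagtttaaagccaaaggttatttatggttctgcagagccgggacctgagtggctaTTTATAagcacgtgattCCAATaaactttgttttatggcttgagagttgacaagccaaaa
Hoxd3 held CCAAT and AGGTCA, both read on the opposite strand, with first bases at -142 and -161 from the start. Hoxd4 held AGGTCA at -145 on the opposite strand, CCAAT at -208 and 8 on the same strand and TATAAA at -10 on the opposite strand, and none of these matches overlapped another. Of 32851 mouse promoters of this length, 37.4% held CCAAT, 16.3% AGGTCA, 13.6% TATAAA, 20.2% CACCTG and 8.85% TGATNNAT. The matches describe the letters only. GC content was 54.0% for Hoxd3 and 39.7% for Hoxd4, against a median of 52.7% over all promoters and 57.7% over the 24 promoters that RefSeq gives for 22 of the 39 Hox genes.

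Hoxa3 and Hoxa5 were the Hoxa genes higher in T1 cells with an adjusted p below 0.01 in limma. Hoxa3 (chromosome 6, 52169062 to 52213336), a gene of thymus, parathyroid and neck development, was at 513, 420 and 577 normalized counts in T1 replicates 1, 2 and 3 and at 281, 288 and 214 in T2 replicates 1, 2 and 3. All T1 libraries were above all T2 libraries, with means of 503 ± 78.7 and 261 ± 40.6 (SD, 3 libraries each). The log2 fold change was 0.95 (SE 0.16, Benjamini-Hochberg adjusted p = 0.000474 in limma). Antisense and unnamed transcripts on the other strand cover 25.4% of the exonic bases of Hoxa3, among them Hoxaas2 and Hoxaas3, and their reads cannot be separated from those of Hoxa3 there.

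Hoxa5 (chromosome 6, 52201754 to 52204587) was at 2397, 1775 and 2205 normalized counts in T1 replicates 1, 2 and 3 and at 1307, 1307 and 1419 in T2 replicates 1, 2 and 3. The lowest T1 library was above the highest T2 library. Its mean was 2126 ± 318 in T1 and 1344 ± 64.3 in T2 cells (SD, 3 libraries each), with a log2 fold change of 0.65 (SE 0.11, Benjamini-Hochberg adjusted p = 0.000504 in limma). No annotated exon of another gene overlaps its exons. Hoxa3 kept a log2 fold change of 0.81 to 1.07 and Hoxa5 of 0.56 to 0.77 over all alternatives run, and both stayed past an adjusted p-value of 0.01 in each.

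Hoxa9 moved in the other direction. It lies on chromosome 6 (52223100 to 52231089), takes part in mammary gland development and in blood stem cells, and partners with Meis1 in leukemia. Its normalized count was 16.9, 9.30 and 8.78 in T1 replicates 1, 2 and 3 and 23.5, 30.7 and 36.2 in T2 replicates 1, 2 and 3. The T1 libraries, with 16, 10 and 9 reads, all lay below the T2 libraries, with means of 11.7 ± 4.56 and 30.1 ± 6.36 (SD, 3 libraries each). The log2 fold change was -1.33 (SE 0.35, Benjamini-Hochberg adjusted p = 0.00677 in limma). From the summed reads, 35 and 93, the ratio of T1 to T2 was 0.38, with a 95% counting interval of 0.25 to 0.57. The call did not hold in 8 of 16 alternatives, while the direction did in all, although several of them cannot alter the fold change. Its adjusted p-value was 0.0152 in DESeq2, 0.0110 in limma without the filter on low counts and 0.0109 with the replicate number as a term. It was 0.0217 without T1 replicate 2, 0.0167 without T1 replicate 3, and 0.0125, 0.0220 and 0.0326 without T2 replicates 1, 2 and 3 (all limma with Benjamini-Hochberg adjustment).

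The RefSeq promoters of Hoxa5, the most abundant Hox gene per kb, and of Hoxa9, the gene with the opposite direction, are printed in the same way. They lie at chr6:52204538-52204837 and chr6:52227321-52227620 on the minus strand and are written 5′ to 3′ along the gene. RefSeq starts Hoxa5 at 52204587, as GENCODE does. It starts Hoxa9 at 52227370, inside the gene span that GENCODE starts at 52231089, so the Hoxa9 window lies within that span.
Hoxa5: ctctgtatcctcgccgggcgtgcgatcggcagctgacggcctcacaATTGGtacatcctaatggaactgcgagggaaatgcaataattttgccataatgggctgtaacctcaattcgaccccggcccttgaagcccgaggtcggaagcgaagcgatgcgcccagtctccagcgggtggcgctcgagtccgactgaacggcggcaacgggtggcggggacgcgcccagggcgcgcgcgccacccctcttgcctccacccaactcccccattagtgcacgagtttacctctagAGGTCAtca
Hoxa9: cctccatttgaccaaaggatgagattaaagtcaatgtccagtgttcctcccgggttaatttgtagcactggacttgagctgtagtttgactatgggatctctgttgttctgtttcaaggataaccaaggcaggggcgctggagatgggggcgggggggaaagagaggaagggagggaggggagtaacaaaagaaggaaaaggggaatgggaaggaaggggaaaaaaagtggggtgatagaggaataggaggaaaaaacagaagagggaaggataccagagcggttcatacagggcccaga
Hoxa5 held CCAAT at -204 on the opposite strand and AGGTCA at 42 on the same strand, and Hoxa9 held none of the 5 motifs. The windows differed in base composition. The Hoxa5 promoter had 61.7% GC and an observed over expected CpG ratio of 1.02, and the Hoxa9 promoter 49.7% GC and a ratio of 0.28, with a median ratio of 0.38 over all promoters and 0.63 over those of Hox genes.

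Hoxa2, Hoxa4, Hoxa6, Hoxa7 and Hoxa10 did not pass an adjusted p-value of 0.01, and the T1 and T2 libraries of each overlapped. Hoxa2, which patterns the second pharyngeal arch, was at 338, 193 and 314 normalized counts in T1 and 324, 263 and 301 in T2 replicates 1, 2 and 3, a log2 fold change of -0.11 (SE 0.20). T1 replicate 2 lay below all other libraries, and without it the value was 0.14.

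Hoxa4 was at 19.0, 9.30 and 19.5 normalized counts in T1 and 12.7, 7.17 and 8.35 in T2 replicates 1, 2 and 3, a log2 fold change of 0.67 (SE 0.40, Benjamini-Hochberg adjusted p = 0.172 in limma). Hoxa6 was at 171, 150 and 180 in T1 and 165, 206 and 191 in T2 replicates 1, 2 and 3, a log2 fold change of -0.16 (SE 0.15). These 2 genes, like Hoxa5, pattern the trunk skeleton, and the libraries of the populations overlapped for both. Hoxa7, another trunk gene, was at 240, 217 and 213 in T1 and 225, 223 and 203 in T2 replicates 1, 2 and 3, a log2 fold change of 0.04 (SE 0.13). Hoxa10, a gene of uterus and limb development, was at 481, 383 and 387 in T1 and 478, 440 and 545 in T2 replicates 1, 2 and 3, a log2 fold change of -0.23 (SE 0.13, Benjamini-Hochberg adjusted p = 0.160 in limma). Of these genes, Hoxa7 had the most similar levels in the populations, and its sign changed when T1 replicate 1 or T2 replicate 3 was left out.

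The genes of the Hoxa cluster did not change together, which the share of each gene within the cluster shows. The summed Hoxa level was 4290, 3248 and 4006 normalized counts in T1 and 2849, 2837 and 3010 in T2 replicates 1, 2 and 3, a ratio of 1.33 of the means. Hoxa5 made up 54.7% to 55.9% of it in T1 libraries and 45.9% to 47.1% in T2 libraries, and Hoxa3 12.0% to 14.4% and 7.12% to 10.1%. Hoxa10 made up 9.67% to 11.8% in T1 and 15.5% to 18.1% in T2 libraries, Hoxa2 5.93% to 7.87% and 9.27% to 11.4%, and Hoxa6 4.00% to 4.61% and 5.77% to 7.25%. Hoxa7 took 5.31% to 6.67% and 6.75% to 7.90%, and Hoxa9 0.22% to 0.39% and 0.82% to 1.20%. The shares of these 7 genes did not overlap between the populations, while that of Hoxa4 did. Shares of 1 library add up to 100%, so a larger share of Hoxa5 and Hoxa3 in T1 cells lowers all others, and the levels of Hoxa2, Hoxa6, Hoxa7 and Hoxa10 themselves overlapped. By position, Hoxa9 lies nearer to the Hoxa13 end than Hoxa5 and Hoxa3, and the annotated span of Hoxa3 covers Hoxa4, Hoxa5 and Hoxa6.

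**Figure D4:**
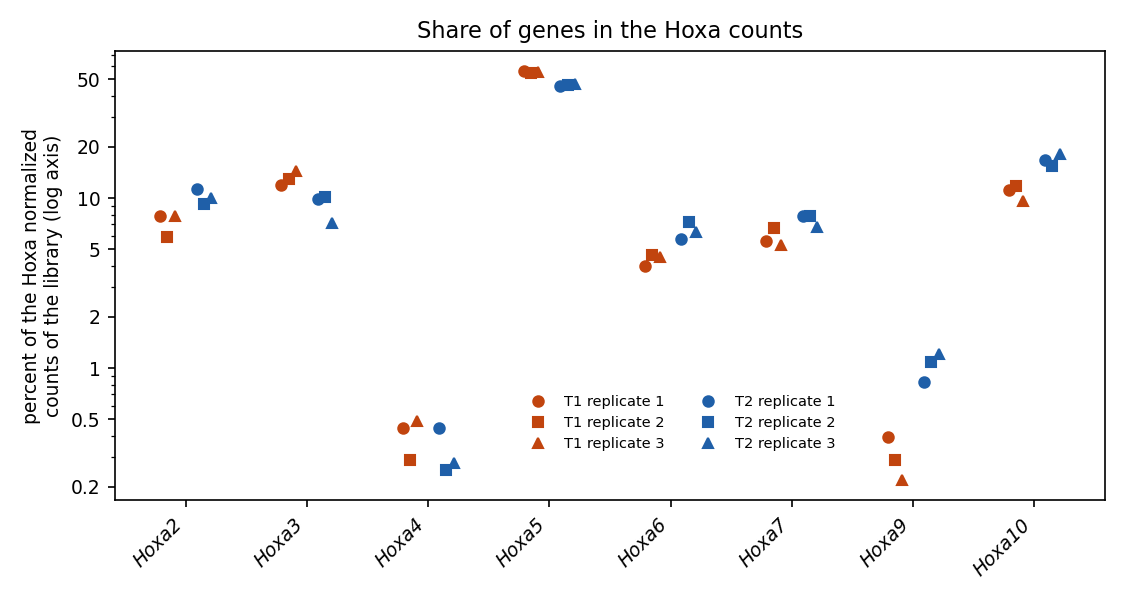
Share of each Hoxa gene described here in the summed Hoxa normalized counts of a library (log axis), with T1 cells in orange, T2 cells in blue and 1 symbol per replicate. Hoxa5 and Hoxa3 take larger shares in T1 libraries, Hoxa2, Hoxa6, Hoxa7, Hoxa9 and Hoxa10 take larger shares in T2 libraries, and Hoxa4 overlaps.

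Noncoding transcripts of the clusters were read in the same way. Hotairm1 (chromosome 6, 52156902 to 52162119, plus strand), a noncoding transcript known from myeloid cells, was at 205, 206 and 394 normalized counts in T1 and 106, 112 and 120 in T2 replicates 1, 2 and 3. All T1 libraries were higher, and T1 replicate 3 stood above the others. The log2 fold change was 1.18 (SE 0.24, Benjamini-Hochberg adjusted p = 0.00155 in limma), and it was 0.87 without T1 replicate 3. Hoxaas2 (54.0, 64.2 and 77.1 in T1, 44.1, 48.1 and 61.2 in T2 replicates 1, 2 and 3) and Hoxaas3 (39.1, 25.1 and 13.7 in T1, 41.1, 56.3 and 33.4 in T2) overlapped between the populations. Hoxa11os had 1 read in T1 replicate 3. Of 16 noncoding entries in the table, 11 had no read, among them Hotair, Hottip, Haglr and the precursors of the microRNAs that lie within the clusters, such as Mir10b within the span of Hoxd4 and Mir196b within that of Hoxa9. The libraries were made from polyadenylated RNA and do not measure mature microRNAs.

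Meis1 and Pbx3, which encode cofactors that Hox proteins bind DNA with, were lower in T1 cells with an adjusted p below 0.01. So were 24.4% of all genes compared, and 49.5% passed in either direction. Not every cofactor compared is reported here, so the 2 named genes do not give the share of the list that passed. Whether the cofactors as a group differ from all genes was not tested. Of 9 Pbx, Meis and Pknox genes 7 were compared. The 7 genes had a median log2 fold change of -0.33 against -0.0055 for all genes compared. Meis1, a cofactor of posterior Hox proteins, was at 122, 113 and 89.8 normalized counts in T1 and 749, 1026 and 650 in T2 replicates 1, 2 and 3. Every T1 library was below every T2 library, with a log2 fold change of -2.87 (SE 0.19, Benjamini-Hochberg adjusted p = 5.7e-07 in limma), past both filters. Pbx3 had a log2 fold change of -0.71. Pbx2 (-0.33), Meis2 (-0.09), Pknox1 (0.02) and Meis3 (0.15) did not pass, and Pbx4 and Pknox2 were too low to be compared.

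Among the chromatin regulators of the clusters that passed the test, log2 fold changes ran from -1.65 to 0.87. Of 11 genes of Polycomb repressive complex 2, which methylates lysine 27 of histone H3, 5 were lower and 1 higher in T1 cells with an adjusted p below 0.01. Phf1, an accessory subunit, had a log2 fold change of -1.65 and Eed, a core subunit, of 0.59, while the core subunit Suz12 (0.02) and the most read member, Rbbp4 (-0.14), did not pass. The enzyme Ezh2 was at 2027 ± 58.5 in T1 and 2033 ± 177 normalized counts in T2 cells (SD, 3 libraries each). Of 16 genes of Polycomb repressive complex 1, which binds and ubiquitinates chromatin, 7 were lower and 2 higher. Bmi1 had a log2 fold change of -0.79, and Pcgf6 and Cbx7 of 0.87 and 0.85, whereas Phc2, the most read member, had -0.21 and did not pass. Of 11 Trithorax genes and H3K27 demethylases 4 were lower and 2 higher, with Kmt2a, which keeps Hox genes active, at -0.88, Kdm6b, a demethylase, at -1.01 and Ash2l at 0.73. Psip1, the most read of them, was at -0.03 and did not pass. Kdm6b was uneven in T2 cells, at 1391, 2366 and 1145 normalized counts in replicates 1, 2 and 3. Of 8 boundary and looping factors 2 were lower (Stag2 and Smc1a) and 2 higher (Wapl and Nipbl), and neither Ctcf (0.09) nor the most read gene, Rad21 (-0.20), passed. The largest of these 4 shares in either direction, 56.3% in Polycomb repressive complex 1, lay near the 49.5% of all genes compared. By direction, 24.4% of all genes compared were lower and 25.1% higher in T1 cells. Both Polycomb lists held more lower than higher genes, 5 against 1 of 11 and 7 against 2 of 16. The Trithorax list had 4 against 2 of 11, and the boundary and looping list 2 against 2 of 8. Whether these splits differ from that of all genes was not tested.

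Retinoic acid induces Hox genes at the 3′ ends of the clusters in the embryo. Of 18 genes of its pathway 6 were compared, and 2 were higher and 1 lower in T1 cells, a share near the 49.5% of all genes compared that had an adjusted p below 0.01. Crabp2, which carries retinoic acid to its receptors, was at 30.7, 40.0 and 75.2 normalized counts in T1 and 0.979, 6.14 and 4.64 in T2 replicates 1, 2 and 3. All T1 libraries were higher, with a log2 fold change of 3.43 (SE 0.53, Benjamini-Hochberg adjusted p = 0.000256 in limma), past both filters. It had enough reads to be compared in T1 cells alone, and without the filter on low counts its adjusted p was 0.000289 in limma. Rdh10, which makes retinal for retinoic acid synthesis, had a log2 fold change of 1.70 and the receptor gene Rara of -1.23, while Rarg, the most read member, was at 0.01 and did not pass. The synthesis enzyme Aldh1a2 and the degrading enzyme Cyp26a1 had no read in any library.

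Of 9 genes listed as caudal and posterior regulators 4 were compared. Hmga2 (log2 fold change -1.59) and Zfp703 (-1.46) were lower in T1 cells, 2 of 4. Of all genes compared, 24.4% were lower and 49.5% passed in either direction. Zfp703 was uneven in T2 cells, at 1816, 3617 and 1427 normalized counts in replicates 1, 2 and 3. Cdx1, Cdx2, Cdx4, Lin28a and Lin28b had no read. Among genes beside the clusters, 10 were compared, and 3 were higher and 1 lower in T1 cells, 4 of 10 against 49.5% of all genes compared, which is no result about these genes as a group. Skap1, which lies beyond the Hoxb1 end of the Hoxb cluster and is known as an adaptor in T cells, was at 34.9, 66.0 and 39.0 normalized counts in T1 and 6.85, 9.21 and 5.57 in T2 replicates 1, 2 and 3. The populations did not overlap, and the log2 fold change was 2.51 (SE 0.35, Benjamini-Hochberg adjusted p = 0.000127 in limma), past both filters. It too had enough reads to be compared in T1 cells alone, and its adjusted p without the filter was 0.000201 in limma. Skap2, beside the Hoxa cluster, had a log2 fold change of 0.60, Mtx2, beside Hoxd1, of 0.30, and Calcoco1, beside Hoxc13, of -1.49. Evx1 and Evx2, homeobox genes beside Hoxa13 and Hoxd13, had no read. Cbx5, the most read flanking gene, was at 0.09 and did not pass.

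**Figure D5:**
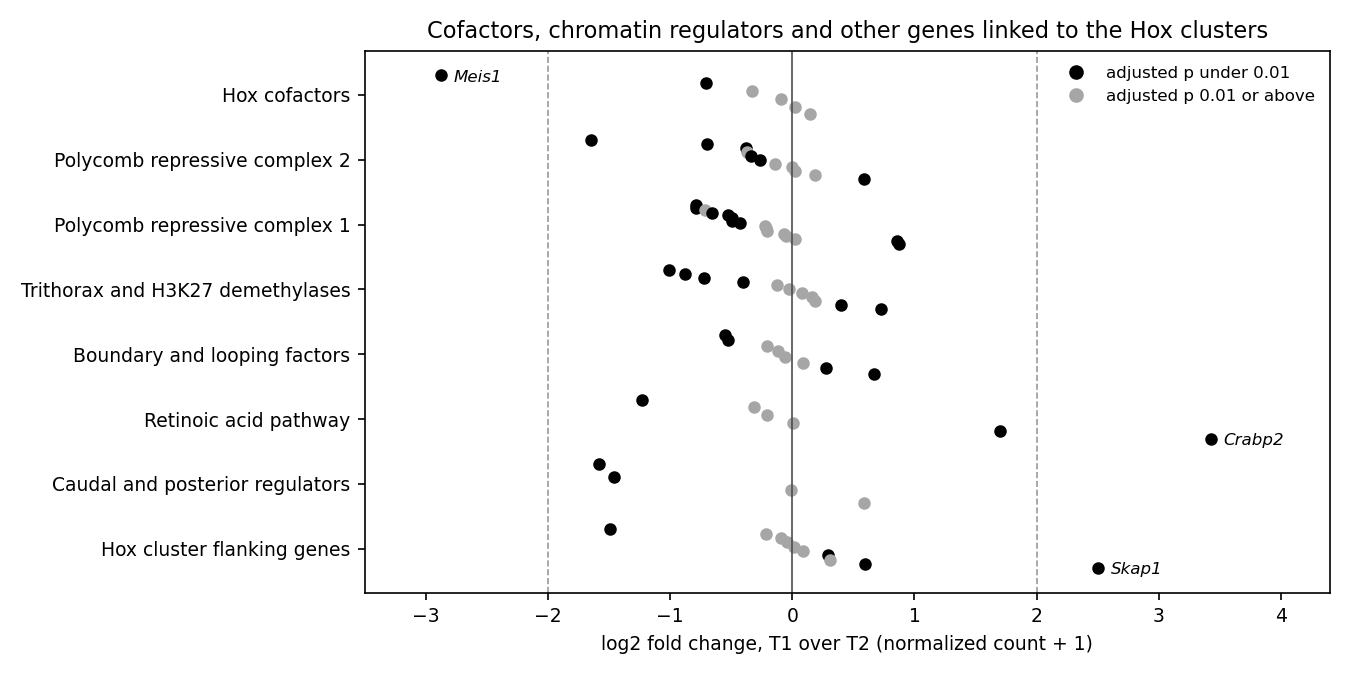
Log2 fold change of T1 over T2 cells (normalized count + 1) for genes compared in 8 lists linked to the Hox clusters, with black points for an adjusted p below 0.01 in limma and dashed lines at a log2 fold change of 2 in each direction. Meis1, Crabp2 and Skap1 lie past the lines, and the points of both Polycomb lists lie on both sides of 0.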

How the data were processed

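RNA of 3 T1 and 3 T2 libraries (poly(A) selection, modified TruSeq RNA V2 kit, which does not mark strand, paired ends) was used. The authors used Trimmomatic for adapters, TopHat2 for alignment to mm10, HTSeq for gene counts and DESeq2 for normalization. The deposited values are a signal: each gene's reads over the size factor of the library. Versions, annotation and strand setting are not given in the sources used here. No value column was left out (0 unused). Values were whole reads for 100% of entries within a tolerance of 0.02, so reads were recovered. The table held 27 entries turned into dates, which are not named.

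Genes averaging 10 or more normalized counts were compared by limma 3.58.1 (in R 4.3.3), applied to log2(normalized count + 1) with a variance trend, and Benjamini-Hochberg adjustment over 11514 genes. Following the study's methods, the 2 filters were an adjusted p below 0.01 and an absolute log2 fold change over 2. edgeR 4.0.16 and DESeq2 1.42.0 on recovered reads were alternatives, beside pseudocounts of 0.5 and 5, no filter or a mean of 50, quantile normalization, limma without the trend, wider thresholds (0.05 and 1), a replicate block, and leaving out each library. edgeR without a filter was added after seeing the data. All 3 tools were tested on simulated data. Replicates differed beyond sampling noise (chi-square per degree of freedom 7.96 to 25.0). With 3 against 3 libraries the smallest exact permutation p is 0.1, so single values were tested only within the fit over all genes.

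The Hox genes and the gene lists were chosen with earlier results of these data known. Values of some genes are not reported here. Apart from these, every Hox gene with a mean of 10 was named with its values, those below by their reads, and those without reads by name. From the lists, genes past both filters, the most read member and noncoding transcripts with a read were named, and other list members were chosen after their values were seen. Exons came from GENCODE M21, promoters from RefSeq (GRCm38.p6). Plots used matplotlib 3.10.9 and Python 3.11.15.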

Additional observations from a re-analysis of the deposited data

How the results depend on the processing

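Of the Hox genes, 1 passed both filters, and each library left out in turn gave 1 to 1. The number was 2 with wider thresholds (Hoxa9 and Hoxd4), 2 without the filter on low counts and 2 in edgeR without that filter (Hoxd3 and Hoxd4 in both), and 0 with a mean of at least 50, which removes Hoxd4 from the fit. At an adjusted p-value under 0.01 alone, 4 passed, 3 to 4 with a library left out, and 2 with a mean of at least 50, which also removes Hoxa9. For the lists linked to the clusters, the 3 genes past both filters became 11 with wider thresholds, 5 without the filter, 5 in edgeR without it and 1 with a mean of at least 50 (3 to 3 with a library left out), and 964 of all genes became 2445 with wider thresholds and 929 to 970 with a library left out. With a library left out, the log2 fold change of Hoxa2 ran from -0.26 to 0.14, the latter without T1 replicate 2, and that of Hoxa7 from -0.015 without T1 replicate 1 to 0.072, with -0.0084 without T2 replicate 3, so both changed sign, and neither passed the test in any of these. The wider thresholds reuse the main fit. The other filters on low counts, limma without the trend and the replicate block keep each log2 fold change, so a direction could not change there. Over the single Hox and list genes followed through all alternatives, these included, 223 values kept their direction and their side of the threshold, 3 changed sign, and the 8 that lost the threshold were all of Hoxa9. The cause was not tested.

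The labels give replicate numbers without saying that equal numbers share a culture or day. The deviations of same-numbered libraries were correlated at 0.0575, 0.172 and 0.104 over genes, and those of different numbers at -0.152 to 0.0719. Each T1 library correlated best with the T2 library of its number, while T2 replicate 1 correlated best with T1 replicate 3. These values do not settle whether equal numbers mark pairs. Since no label states it, the main fit left the numbers out and the replicate block was an alternative. With the replicate block, 1 Hox gene passed both filters and 3 passed the adjusted p-value alone, as Hoxa9 no longer did (Benjamini-Hochberg adjusted p = 0.0109 in limma). Depth limits the genes with few reads: a gene without a read could still be present at up to 3 reads, which is 2.78 to 3.17 normalized counts. The smallest difference that could be detected was not computed.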
